A study of Mus musculus with 6 samples.

Results

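The 51 probe sets that the platform annotation assigns to immunoglobulin heavy chain, kappa light chain, lambda light chain or J chain genes were followed in CD11c+ cells from mouse spleen. They were chosen by gene symbol alone, out of 22625 non-control probe sets on the array, as every probe set with at least 1 symbol of an Igh, Igk or Igl constant, variable or joining segment gene or with the symbol Jchain. No measured value entered that rule, but the group was proposed when earlier results of these data were known, so the tests given for its members describe them and are no independent evidence. Of the 51 probe sets 23 belong to the heavy chain, 24 to the kappa chain, 3 to the lambda chain and 1 to the J chain. They carry 27 different gene symbols of 13319 on the array, and 13 of them name several genes at once.

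An antibody is built from paired heavy chains and paired light chains, and each chain has a variable region that contacts antigen and a constant region. B cells assemble the variable region by joining gene segments, so each B cell clone uses its own V segment, while the constant region is shared by all cells of an isotype. B cells carry immunoglobulin M and D in the membrane as part of the B cell receptor, and plasma cells secrete very large amounts of antibody. The J chain links immunoglobulin M and immunoglobulin A into polymers. Dendritic cells do not make antibody, although dendritic cells and macrophages bind secreted antibody through Fc receptors.

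The cells came from untreated mice 8 weeks of age on the C57BL/6J background and were separated from spleens by magnetic sorting for CD11c. The groups were 3 arrays from wild-type mice, labelled WT (C57BL/6J), and 3 from mice labelled Atg16L1 hypomorphic, a term for an allele with reduced function of this autophagy gene. No cell type for that reduction is named. Atg16L1 is part of the enzyme that attaches LC3 to autophagosome membranes. The labels do not say which allele was used, whether each array came from its own mouse, or whether mice were pooled, so p-values measure only the spread between these arrays. Wild-type replicate 3 has a title with a different array version, and wild-type replicate 1 has a title with a different leading number, the meaning of which is not stated. Precision is set by the number of arrays, since reads were not counted.

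Log2 levels had array medians from 5.65 to 5.71. Atg16l1 had log2 levels of 7.05, 7.11 and 7.04 on the wild-type arrays and 6.13, 5.84 and 6.11 on the hypomorph arrays. Itgax, which encodes CD11c, was at 10.45, 10.20 and 10.30 in wild type and 10.01, 9.87 and 9.96 in the hypomorph. By the limma test used below, this sorting marker gene was lower in the hypomorph (log2 difference -0.37, adjusted p = 0.0352). That call was lost when any array other than wild-type replicate 2 was left out. Poly-A spike-ins, bacterial RNAs that serve as labelling controls, have 24 probe sets with a mean log2 level of 9.48 ± 0.50 (SD, n = 3) on wild-type arrays and 7.69 ± 0.18 (SD, n = 3) on hypomorph arrays. This technical signal therefore moved with genotype, with array means from 8.95 to 9.96 in wild type and 7.58 to 7.90 in the hypomorph. A fit with it as a covariate is given below. Because the groups do not overlap in this signal, that fit cannot reliably separate it from genotype, and its part was not tested.

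Of the 27 member symbols, Jchain was the 1 with an entry in the RefSeq promoter table (GRCm38.p6). Its promoter is shown because the J chain had the largest difference of any member that passed the test, from 250 bases before to 50 after the transcription start, at chr5:88527848-88528147 on the minus strand. Capitals mark the match to an E-box, the kind of site bound by basic helix-loop-helix proteins.
Jchain: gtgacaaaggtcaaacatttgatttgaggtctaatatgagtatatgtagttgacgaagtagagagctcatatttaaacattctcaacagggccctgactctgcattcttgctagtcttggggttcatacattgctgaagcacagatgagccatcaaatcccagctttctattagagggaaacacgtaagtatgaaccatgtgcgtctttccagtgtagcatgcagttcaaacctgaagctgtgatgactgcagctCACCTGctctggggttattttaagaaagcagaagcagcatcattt
Searched on both strands for the octamer ATGCAAAT, the motif typical of immunoglobulin promoters, this window held no match, and 1.74% of 32851 promoters in the table hold one. It held no TATAAA either, which 13.6% of promoters hold. The E-box CAGGTG was found once, on the reverse strand as CACCTG starting at base 6 after the start, and 20.2% of promoters hold it on one strand or the other. A match or its absence in this window describes these letters and no more.

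Immunoglobulin probe sets were lower on the hypomorph arrays. With limma, 19 of the 51 fell at an adjusted p under 0.05 over all 22625 probe sets, or 37.3%, against a background of 7.73% of all probe sets that fell. None rose by this test, against 9.76% of all probe sets. At an unadjusted p under 0.05, 33 members were lower and 1 was higher, against 3894 and 3562 of all 22625 probe sets. The direction was negative for 50 of the 51, the median log2 difference was -0.57, and the same median over all probe sets was -0.04. All 3 hypomorph arrays lay below all 3 wild-type arrays for 31 members (60.8%), as they did for 21.1% of all probe sets. The 19 that fell were 3 heavy chain, 12 kappa chain, all 3 lambda chain and the J chain probe sets, and their log2 differences ran from -1.73 to -0.51.

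Many member probe sets were dim. Of 23 members whose mean level exceeded the median of all probe sets, 5.67, 15 fell (65.2%), against 10.9% of all probe sets above that level. Of the 28 dimmer members 4 fell. This split by level was chosen after seeing the data. Since the level is a mean over both genotypes, the difference itself takes part in the split: 5 of the 23, with 2 of the 15 that fell among them, exceeded the median through their wild-type arrays alone, and nothing is read from these counts. The median log2 difference was -1.05 for the brighter members and -0.27 for the dimmer ones. The number of members that fell was 8 without hypomorph replicate 1 and 10 without hypomorph replicate 3, and among the brighter members it was 8 and 9. Without wild-type replicate 1 or 3, the arrays with unusual titles, it was 15 each. The number of all probe sets called was also below the 3956 of the main fit whenever 1 array was left out. The calls that held when any 1 array was left out were those of 8 probe sets: Jchain, 2 for Ighm, Igkv14-111, Igkv6-14, Igkv8-30, 1 for Igkc and 1 for Iglc1 and Iglv1. When the spike-in mean was added to the model, limma called 0 members and 0 of all probe sets. In that fit 6 of the 51 members had an unadjusted p under 0.05, as did 2129 of all 22625 probe sets. The median standard error of all probe sets grew 2.77 times, and 39 of the 51 differences were negative.

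**Figure D1:**
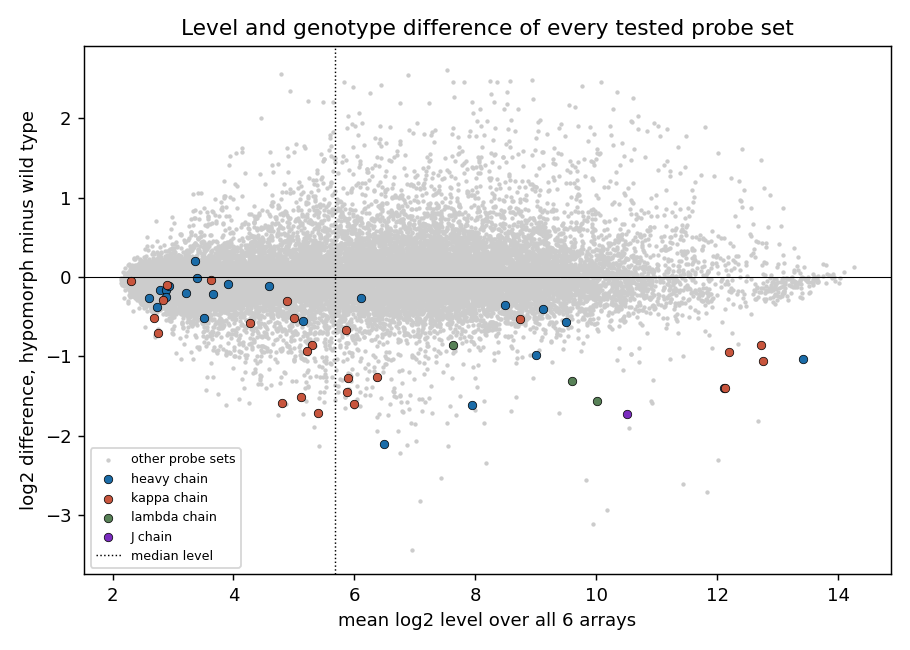
Each point is 1 probe set, with its mean log2 level over the 6 arrays on the x axis and its log2 difference, hypomorph minus wild type, on the y axis. Grey points are the other probe sets, coloured points the immunoglobulin members by chain, and the dotted line is the median level of 5.67. Of the 51 members 50 lie below 0.

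**Figure D2:**
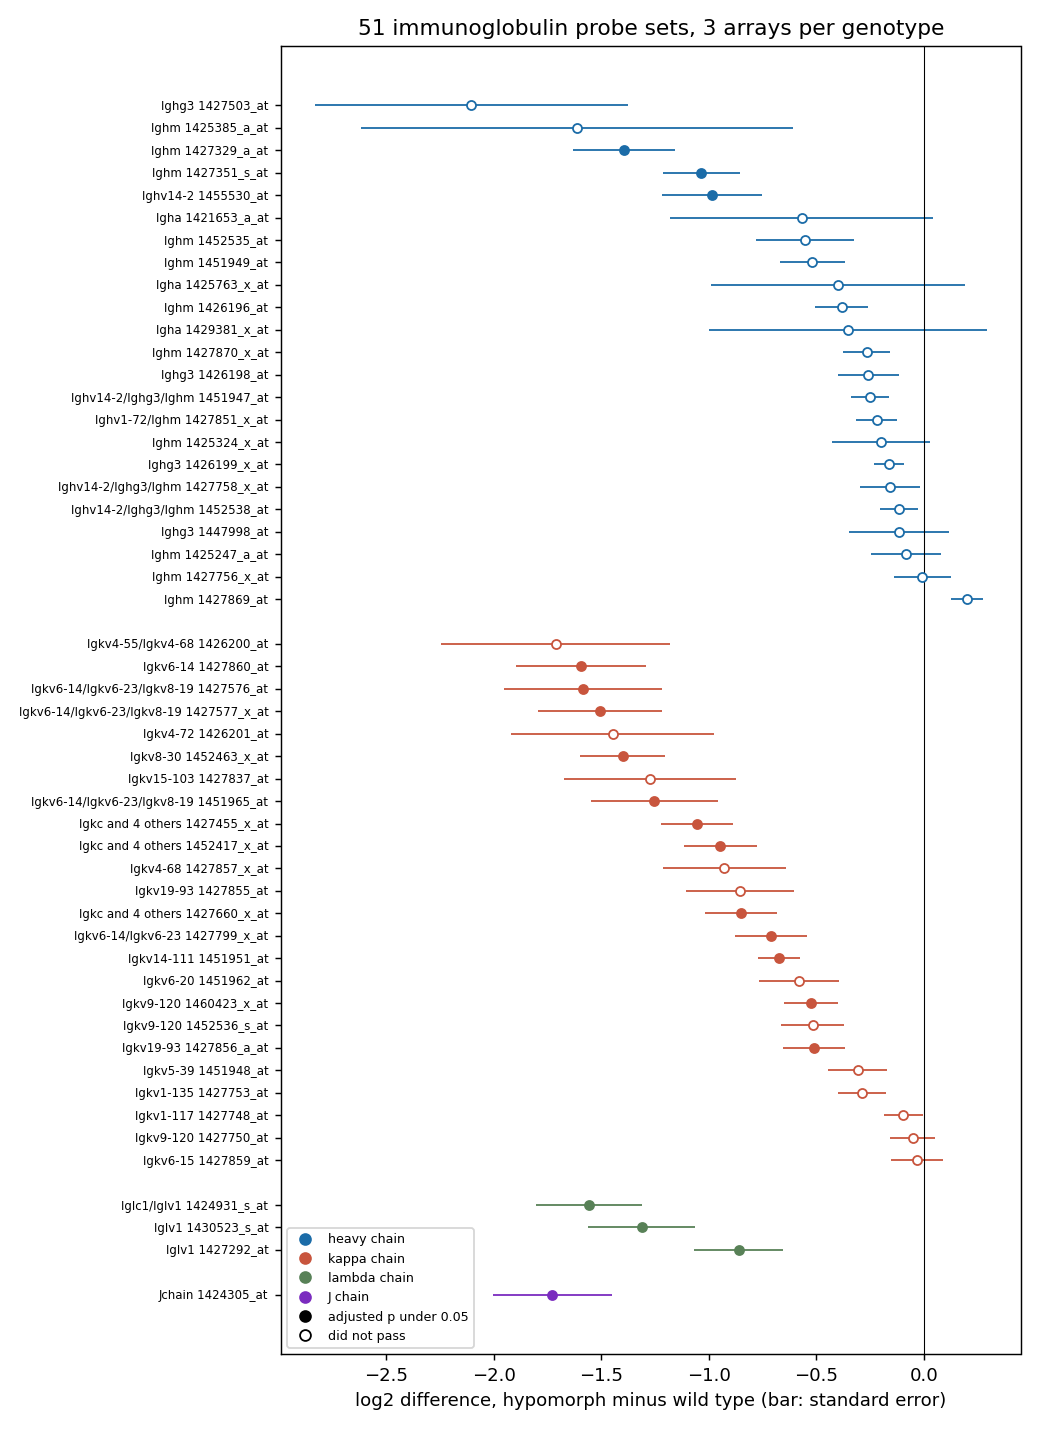
Log2 difference, hypomorph minus wild type, with its standard error for the 51 members, ordered within each chain. Filled points passed at an adjusted p under 0.05. The filled points are 3 heavy chain, 12 kappa chain, 3 lambda chain and 1 J chain probe sets, and the 1 point right of 0 is an Ighm probe set at 0.20.

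Among heavy chain genes, Ighm encodes the constant region of immunoglobulin M, the isotype of the primary B cell receptor. It has 11 probe sets of its own, of which 2 fell. The probe set 1427351_s_at was at log2 levels of 14.22, 13.52 and 14.08 on the wild-type arrays and 12.80, 12.94 and 12.97 on the hypomorph arrays. Every hypomorph array lay below every wild-type array, a 2.05-fold decrease (log2 difference -1.04, SE 0.18, adjusted p = 0.0107). The other, 1427329_a_at, was at 13.22, 12.24 and 12.99 in wild type and 11.28, 11.53 and 11.44 in the hypomorph, and again the groups did not overlap. It was 2.63-fold lower (log2 difference -1.40, SE 0.24, adjusted p = 0.0103). Both were lowest in wild-type replicate 2 among the wild-type arrays.

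The remaining 9 Ighm probe sets did not pass, and all but 1425385_a_at and 1427870_x_at had mean levels under the median of all probe sets. The probe set 1425385_a_at was at 9.51, 7.75 and 8.97 in wild type and at 6.42, 9.52 and 5.45 in the hypomorph. Hypomorph replicate 2 was as high as the highest wild-type array, while the other two hypomorph arrays were below all of them. Its range across the hypomorph arrays was 4.07 on the log2 scale, wider than that of 99.9% of all probe sets. Its difference of -1.61 had an SE of 1.0 (adjusted p = 0.313), and it passed without hypomorph replicate 2 (adjusted p = 0.0385). The dim probe set 1427869_at was the 1 member with a positive difference, from 3.26, 3.23 and 3.33 to 3.42, 3.50 and 3.50 (log2 difference 0.20, adjusted p = 0.11), and it passed as higher after quantile normalization (adjusted p = 0.042). The other 7 had log2 differences from -0.55 to -0.01, and adjusted p-values from 0.0551 to 0.977. Of those 7, 4 passed when some 1 array was left out. The platform gives all 11 the same symbol, so which part of the gene or which variable region each one detects was not resolved here.

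Igha encodes the constant region of immunoglobulin A, the main antibody of mucosal surfaces, and none of its 3 probe sets passed. The probe set 1421653_a_at was at 11.24, 8.48 and 9.64 in wild type and 9.36, 8.97 and 9.33 in the hypomorph. The wild-type arrays spread more widely than the hypomorph arrays, with replicate 1 the highest and replicate 2 the lowest of all 6, and the hypomorph arrays lay between them. Its log2 difference was -0.57 with a 95% interval from -2.01 to 0.87 (adjusted p = 0.562). The other two, 1425763_x_at and 1429381_x_at, differed by -0.40 and -0.35 (adjusted p = 0.677 and 0.745) with wild-type values of 10.73, 8.08 and 9.12 and of 10.14, 7.24 and 8.61. Without wild-type replicate 1 all 3 differences turned positive, at 0.16, 0.31 and 0.38, so their direction rests on that array. All 3 intervals include both 0 and the changes of the 2 Ighm probe sets that fell. Whether Igha and Ighm differed in their response was not tested.

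Ighg3 names an immunoglobulin G constant region and is the symbol of 4 probe sets, none of which passed. The probe set 1427503_at had the most negative difference of any member, at 9.32, 6.22 and 7.09 in wild type and 5.26, 5.98 and 5.08 in the hypomorph. The groups did not overlap, but wild-type replicate 1 stood far above the next wild-type array, and the difference of -2.10 (SE 0.73, 4.3-fold) had an adjusted p = 0.0908. It passed without wild-type replicate 2 (adjusted p = 0.03). Without wild-type replicate 1 its difference was -1.21 (adjusted p = 0.0656) and no longer the most negative, which was then that of 1426200_at at -1.56. The other 3 were dim, with group means from 2.47 to 4.65, and differed by -0.26, -0.16 and -0.12. No probe set in the annotation used carries the symbol of Ighd, Ighe, Ighg1, Ighg2b or Ighg2c, and those genes were not analysed here.

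Heavy chain variable genes are represented by Ighv14-2, which has 1 probe set of its own and 3 shared with Ighg3 and Ighm, and by Ighv1-72, shared with Ighm. The Ighv14-2 probe set 1455530_at was at 9.19, 9.69 and 9.60 in wild type and 8.07, 8.95 and 8.51 in the hypomorph, a 1.98-fold decrease (log2 difference -0.99, SE 0.23, adjusted p = 0.0299). All hypomorph arrays were lower than all wild-type arrays, and here wild-type replicate 1, usually the highest, was the lowest of its group. The call was lost when wild-type replicate 2, wild-type replicate 3, hypomorph replicate 1 or hypomorph replicate 3 was left out. The 4 shared probe sets were dim, at group means from 2.75 to 3.78, and did not pass (log2 differences from -0.25 to -0.12). Without wild-type replicate 2 the heavy chain count rose from 3 to 5.

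The kappa chain supplies the light chain of most mouse antibodies, and 12 of its 24 probe sets fell. All 3 probe sets that include the kappa constant gene Igkc fell. They carry the same 5 symbols, Igkc, Igkj1, Igkv6-23, Igkv4-53 and Igkv8-30, end in _x_at, the suffix Affymetrix gives to sets that may bind other transcripts too, and are not independent of each other. The probe set 1427455_x_at was at 13.56, 12.93 and 13.34 in wild type and 12.06, 12.36 and 12.25 in the hypomorph, a 2.08-fold decrease (log2 difference -1.05, SE 0.17, adjusted p = 0.00834). For 1427660_x_at the levels were 13.45, 12.83 and 13.17 and 12.09, 12.40 and 12.40 (log2 difference -0.85, SE 0.17, adjusted p = 0.0171). For 1452417_x_at they were 12.93, 12.31 and 12.75 and 11.52, 11.79 and 11.83 (log2 difference -0.95, SE 0.17, adjusted p = 0.0122). In each of the 3 the groups did not overlap, hypomorph replicate 1 was the lowest array, and wild-type replicate 2 was the lowest of its group. The call of 1427660_x_at was lost without any 1 hypomorph array, and that of 1452417_x_at without hypomorph replicate 1 (adjusted p = 0.0503).

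Among the kappa variable gene probe sets, 1452463_x_at for Igkv8-30 was at 13.05, 12.35 and 13.07 in wild type and 11.30, 11.56 and 11.42 in the hypomorph. It fell 2.64-fold with the smallest adjusted p of any member (log2 difference -1.40, SE 0.20, adjusted p = 0.00561). The probe set for Igkv6-14 alone, 1427860_at, fell 3.02-fold, from 7.19, 6.48 and 6.68 to 4.55, 5.37 and 5.65 (log2 difference -1.59, SE 0.30, adjusted p = 0.0151). Hypomorph replicate 1 was the lowest array. Igkv14-111, by 1451951_at, had narrow groups at 6.28, 6.08 and 6.25 and 5.46, 5.66 and 5.46, and a difference of -0.67 (SE 0.0963, adjusted p = 0.00571).

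All 4 probe sets that name Igkv6-14 together with other V genes also fell, and since they name the same gene they are not independent of each other or of the set above. The largest difference of these, for 1427576_at, which names Igkv6-14, Igkv6-23 and Igkv8-19, was from 6.21, 4.82 and 5.76 to 3.52, 4.30 and 4.22 (log2 difference -1.58, SE 0.37, adjusted p = 0.028). The others, 1427577_x_at, 1451965_at and 1427799_x_at, differed by -1.51, -1.25 and -0.71. Each of the 4 calls was lost without any 1 hypomorph array.

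The probe set 1426200_at, for Igkv4-55 and Igkv4-68, had the most negative kappa difference, with 6.55, 4.93 and 7.28 in wild type and 4.75, 4.31 and 4.58 in the hypomorph. Wild-type replicate 2 lay near the hypomorph arrays and the other two wild-type arrays were well above them. The difference of -1.71 (SE 0.53) did not pass (adjusted p = 0.0694). The groups did not overlap. The same pattern held for Igkv4-72, at 7.02, 5.39 and 7.42 in wild type and 5.25, 5.22 and 5.01 in the hypomorph (log2 difference -1.45, SE 0.47, adjusted p = 0.0789). Igkv4-68 alone, by 1427857_x_at, differed by -0.93 (adjusted p = 0.0671). All 3 passed without wild-type replicate 2, with adjusted p-values of 0.00228, 0.00116 and 0.00793.

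Igkv15-103 had its highest value on wild-type replicate 1, at 7.56, 6.07 and 5.97, against 5.28, 5.43 and 5.06 in the hypomorph (log2 difference -1.28, SE 0.40, adjusted p = 0.0705), and without wild-type replicate 1 it passed with a smaller difference of -0.76 (adjusted p = 0.0132). Igkv19-93 had 1 dim probe set that fell, 1427856_a_at (log2 difference -0.51, SE 0.14, adjusted p = 0.0493), and another that did not pass, 1427855_at (log2 difference -0.85, SE 0.25, adjusted p = 0.0571). Of 3 Igkv9-120 probe sets 1 fell, 1460423_x_at, from 9.06, 9.01 and 8.93 to 8.22, 8.68 and 8.52 (adjusted p = 0.0304). The calls of Igkv9-120 and of Igkv19-93 were each lost when any of 5 of the 6 arrays was left out, in turn. The smallest kappa differences were those of Igkv6-15 (-0.03), Igkv9-120 by 1427750_at (-0.05) and Igkv1-117 (-0.10), all dim. Igkv6-20, Igkv5-39, Igkv1-135 and the third Igkv9-120 probe set differed by -0.58, -0.31, -0.29 and -0.52 without passing.

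Counted along the locus in the order of 162 Igkv genes in RefSeq, all of which lie on one side of Igkc, the single-gene probe sets that fell were for the genes at positions 20 (Igkv9-120), 31 (Igkv14-111), 54 (Igkv19-93), 131 (Igkv8-30) and 148 (Igkv6-14), the last being the nearest to Igkc. By annotation, genes both far from and near the constant gene were among them. The sets for Igkv9-120 and Igkv8-30 end in _x_at and may bind other transcripts, and the Igkc sets also name Igkv8-30. The remaining sets of Igkv9-120 and Igkv19-93 did not pass. Which V genes changed was thus not resolved. The count of kappa probe sets that fell was 4 without hypomorph replicate 1, 7 without replicate 2 and 5 without replicate 3. It was 8 without wild-type replicate 3, 9 without wild-type replicate 1 and 16 without wild-type replicate 2. In each of these fits fewer of all probe sets were called than in the main fit.

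The lambda chain is the minor light chain in mice, and all 3 of its probe sets fell. The probe set for Iglc1 and Iglv1, 1424931_s_at, was at 11.02, 10.37 and 10.97 in wild type and 8.81, 9.62 and 9.26 in the hypomorph, a 2.95-fold decrease (log2 difference -1.56, SE 0.25, adjusted p = 0.00808). The Iglv1 probe set 1430523_s_at fell 2.48-fold, from 10.63, 9.73 and 10.41 to 8.63, 9.20 and 9.0 (log2 difference -1.31, SE 0.25, adjusted p = 0.0147). The other Iglv1 probe set, 1427292_at, fell 1.82-fold, from 7.98, 7.75 and 8.43 to 6.89, 7.47 and 7.21 (log2 difference -0.86, SE 0.21, adjusted p = 0.0311). In all 3 the groups did not overlap and hypomorph replicate 1 was the lowest array and replicate 2 the highest of the hypomorph. Without hypomorph replicate 1 or 3 the lambda count was 1, and the call of 1427292_at was lost without any array except wild-type replicate 2. All 3 probe sets name Iglv1, so they are not separate genes.

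Jchain had the largest decrease of any member that passed. Its log2 levels were 11.88, 10.70 and 11.52 on the wild-type arrays and 9.49, 9.68 and 9.75 on the hypomorph arrays. The lowest wild-type array, replicate 2, was still above all hypomorph arrays, which lay close together. The decrease was 3.31-fold (log2 difference -1.73, SE 0.28, adjusted p = 0.00857), and the call held when any 1 array was left out. When the spike-in mean was added to the model the log2 difference was -1.47 (adjusted p = 0.67).

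**Figure D3:**
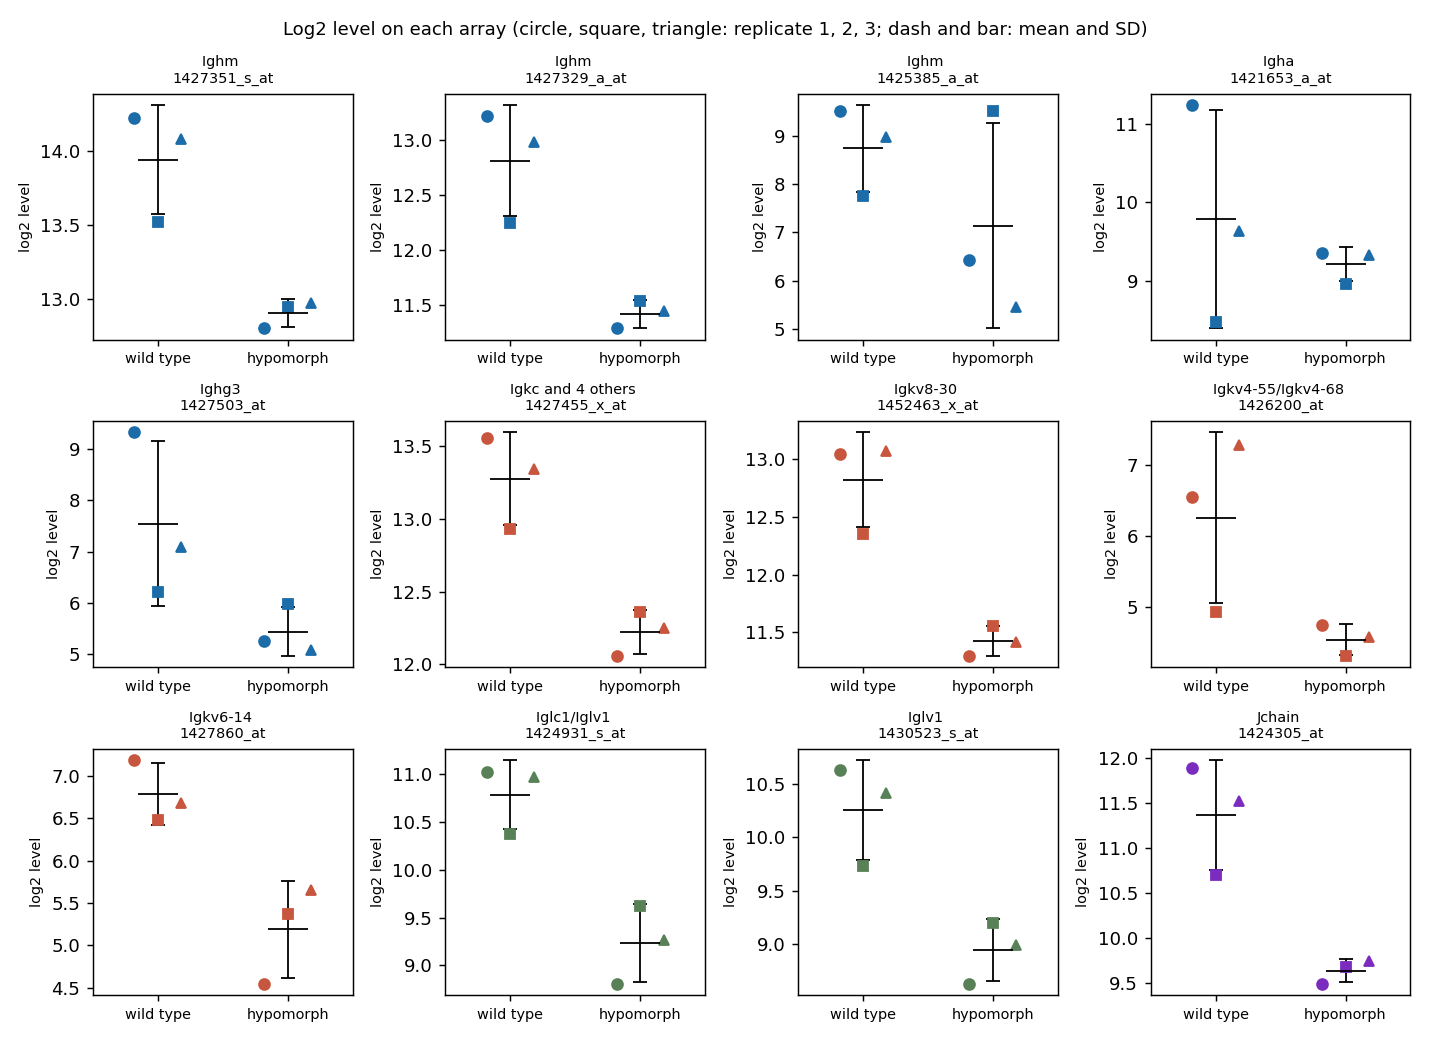
Log2 level on each of the 6 arrays for 12 member probe sets, with a separate y axis per panel; circles, squares and triangles are replicates 1, 2 and 3, and the dash and bar are the mean and SD of 3 arrays. The groups are separate for Jchain, the 2 Ighm probe sets that fell, Igkc, Igkv8-30 and lambda probe sets, while they overlap for Igha and for Ighm 1425385_a_at.

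The order of the arrays was not used by the selection rule. Within wild type, replicate 1 was the highest array for 36 of the 51 members (70.6%) and for 41.4% of all probe sets. Replicate 2 was the lowest for 38 members (74.5%) and for 36.7% of all probe sets. Within the hypomorph, replicate 1 was the lowest for 34 members (66.7%) and for 32.5% of all probe sets. The spread was wider than usual, with a median range across wild-type arrays of 0.62 for members against 0.27 for all probe sets, and of 0.36 against 0.17 across hypomorph arrays. As means over the 23 heavy chain probe sets, set against the wild-type mean, the hypomorph arrays were at -0.55, -0.38 and -0.58. For the 24 kappa probe sets they were at -1.01, -0.77 and -0.81, and for the 3 lambda probe sets at -1.59, -0.93 and -1.21.

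Genes of B cell identity also fell. Of 25 measured genes of the B cell list 15 fell and 0 rose with limma (0 higher and 16 lower after quantile normalization), with a median log2 difference of -0.62, and 7.73% of all probe sets fell. The signalling partners of membrane immunoglobulin were among them, with Cd79a at 7.62, 7.90 and 7.94 in wild type and 6.84, 7.25 and 7.0 in the hypomorph (log2 difference -0.79, SE 0.14, adjusted p = 0.0104). Cd79b, its partner, was at 10.38, 10.62 and 10.60 and 9.64, 10.19 and 9.88 (log2 difference -0.63, SE 0.15, adjusted p = 0.0307). Ms4a1, which encodes CD20, differed by -0.71 (adjusted p = 0.0246). In all 3 genes the hypomorph arrays lay below the wild-type arrays, with hypomorph replicate 1 the lowest.

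The smallest p-values of the B cell list belonged to the tetraspanin gene Cd37 (-1.51, adjusted p = 0.00139), the inhibitory receptor gene Cd22 (-0.74), Ralgps2 (-1.13) and the transcription factor gene Bach2 (-1.0). No other single-gene probe set of Cd37, Ralgps2 or Ms4a1 passed, while that of Cd22 fell. Pou2af1, a coactivator of octamer-binding factors at immunoglobulin promoters, named after its value was seen, fell by 0.82 on the log2 scale (adjusted p = 0.0292). The B cell lineage factor genes Pax5 and Ebf1 did not pass (adjusted p = 0.351 and 0.317). The mean level of the list ran from 8.69 to 8.91 on the wild-type arrays and 8.07 to 8.46 on the hypomorph arrays. Without hypomorph replicate 3 the count fell to 6, and without hypomorph replicate 1 or wild-type replicate 3 to 10. That changed the calls of Cd79a (without hypomorph replicate 3), Cd79b, Ms4a1 and Pou2af1 (each without any 1 of these 3 arrays). The calls of Cd79b and Ms4a1 were also lost without wild-type replicate 2, and that of Pou2af1 without wild-type replicate 1. In such bulk samples fewer B cells and less RNA per B cell cannot be told apart.

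Within wild type the arrays ranked differently by B cell genes than by immunoglobulin. For the B cell list, set against the wild-type mean, replicates 1, 2 and 3 were at -0.14, 0.06 and 0.07, and for the kappa probe sets at 0.29, -0.41 and 0.12. Wild-type replicate 1 was thus the highest by the kappa mean and the lowest by the B cell mean. Among hypomorph arrays both measures were lowest in replicate 1 and highest in replicate 2, at -0.76, -0.37 and -0.58 for the B cell list.

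Of 25 measured genes of the plasma cell list, 3 fell (12%, against 7.73% of all probe sets), 2 rose (8%, against 9.76%) and 20 did not pass, with a median log2 difference of -0.17. The genes that fell were Chst1 (-1.29, adjusted p = 0.00263), Eaf2, a transcription elongation factor gene (-1.40, adjusted p = 0.0416), and Trp53inp1 (-0.43, adjusted p = 0.0326). Those that rose, Hspa5 (0.49) and Sdf2l1 (0.72), encode chaperones of the endoplasmic reticulum present in all secretory cells. Eaf2 was picked for naming with its value known. The calls of Eaf2 and Trp53inp1 were lost without any array except wild-type replicate 2, and that of Hspa5 without hypomorph replicate 3. The other single-gene probe set of Trp53inp1 did not pass, while that of Hspa5 rose. Of the 20 genes that did not pass, Fkbp11 and Glcci1 each had 1 other single-gene probe set that fell, and Prdx4 had 1 that rose. Sdc1, the plasma cell surface proteoglycan CD138, was dim at 4.63, 4.49 and 4.35 and 3.84, 4.40 and 4.38 (adjusted p = 0.282). Prdm1, the master regulator of plasma cells, was higher by 0.54 without passing (adjusted p = 0.057). It passed as higher without wild-type replicate 1 or 3. Xbp1 was at 11.09, 10.75 and 10.82 and 10.89, 10.81 and 10.91 (adjusted p = 0.935).

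The mean of the plasma cell list ran from 8.02 to 8.45 in wild type and 8.05 to 8.06 in the hypomorph, so the groups overlapped. Like the immunoglobulin probe sets, it was highest in wild-type replicate 1 and lowest in wild-type replicate 2 (0.21, -0.22 and 0.02 against the wild-type mean). This order was not particular to them. The V(D)J recombination list described below had it too (0.20, -0.13 and -0.06), and the macrophage list had the reverse order (-0.32, 0.27 and 0.05). Of the 25 genes 19 were highest in wild-type replicate 1 (76%, against 41.4% of all probe sets). In wild-type replicate 2, 19 were lowest (76%, against 36.7%), and 16 were both. Prdm1, Chst1 and Glcci1 were lowest in wild-type replicate 1. Derl3, which acts in degradation of misfolded secretory proteins and is named after its values were seen, was at 8.03, 6.53 and 6.91 in wild type and 5.85, 6.36 and 6.14 in the hypomorph (adjusted p = 0.0932). Txndc5, a disulfide isomerase gene of antibody-secreting cells, also named after its values were seen, was at 9.16, 8.29 and 8.75 and 8.01, 8.04 and 8.03 (adjusted p = 0.0532). The number of fallen plasma cell genes was 6 without wild-type replicate 2 and 1 without any of the other arrays, and 1 gene rose without hypomorph replicate 3 and 3 rose without wild-type replicate 1 or 3. Mzb1 has no probe set in the annotation used and was not analysed here.

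The calls of genes that rearrange or switch immunoglobulin stand beside 7.73% of all probe sets that fell and 9.76% that rose. Nothing is read from counts this small. Of 10 measured genes for V(D)J recombination and the surrogate light chain, Prkdc, the DNA-dependent protein kinase, was the 1 that fell (-0.34, adjusted p = 0.0376), which passed in the leave-one-out fits just without wild-type replicate 2. The recombinase genes Rag1 and Rag2 were dim, at 2.97, 2.38 and 2.54 and 3.07, 2.57 and 2.80 in wild type, and differed by -0.01 and -0.17. Of 11 genes of class switching and the germinal centre, 2 fell, Trp53bp1 (-0.47, adjusted p = 0.0123) and the dim Mybl1 (-0.39, adjusted p = 0.0398). The call of Trp53bp1 was lost without hypomorph replicate 2 or 3, and that of Mybl1 without any array except wild-type replicate 2. The germinal centre factor gene Bcl6 did not pass (0.19, adjusted p = 0.179).

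Receptors for antibody moved in both directions. Of 11 measured genes 5 rose and 2 fell, while 9.76% of all probe sets rose and 7.73% fell. The activating Fc gamma receptor genes Fcgr1, Fcgr3 and Fcgr4 rose by 2.45, 1.89 and 2.46 on the log2 scale, and their common signalling chain gene Fcer1g rose by 0.95. Fcgrt, the neonatal Fc receptor that protects immunoglobulin G from degradation, rose by 1.22; it was picked for naming with its value known. The 2 that fell were Fcgr2b, the inhibitory receptor gene that B cells also express, at 10.43, 10.56 and 10.52 in wild type and 9.80, 10.03 and 10.04 in the hypomorph (adjusted p = 0.0103), and the B cell gene Fcer2a, which encodes CD23 (-0.73, adjusted p = 0.0163). Both are named after their values were seen. Without hypomorph replicate 3 the call of Fcer2a was lost, and its other single-gene probe set did not pass. The polymeric immunoglobulin receptor gene Pigr was dim and did not pass (adjusted p = 0.161).

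Markers of other cells stood beside these changes, and their counts stand beside 9.76% of all probe sets that rose and 7.73% that fell. Of 16 macrophage genes 15 rose and 0 fell, with a median log2 difference of 1.60 and mean levels from 8.74 to 9.33 in wild type and 10.60 to 10.68 in the hypomorph. Conventional dendritic cell genes numbered 15, of which 3 rose and 3 fell; their median log2 difference was 0.08, with means from 10.35 to 10.46 and 10.36 to 10.45. Of 13 T cell genes 1 rose, Cd8b1 (0.96, adjusted p = 0.0419), which passed in the leave-one-out fits just without wild-type replicate 3, and the mean levels were 6.49 to 7.11 and 6.52 to 6.73. The part of the macrophage genes in the immunoglobulin differences was not tested. That of the spike-in signal was not tested either, since the covariate fit above cannot reliably separate it from genotype.

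**Figure D4:**
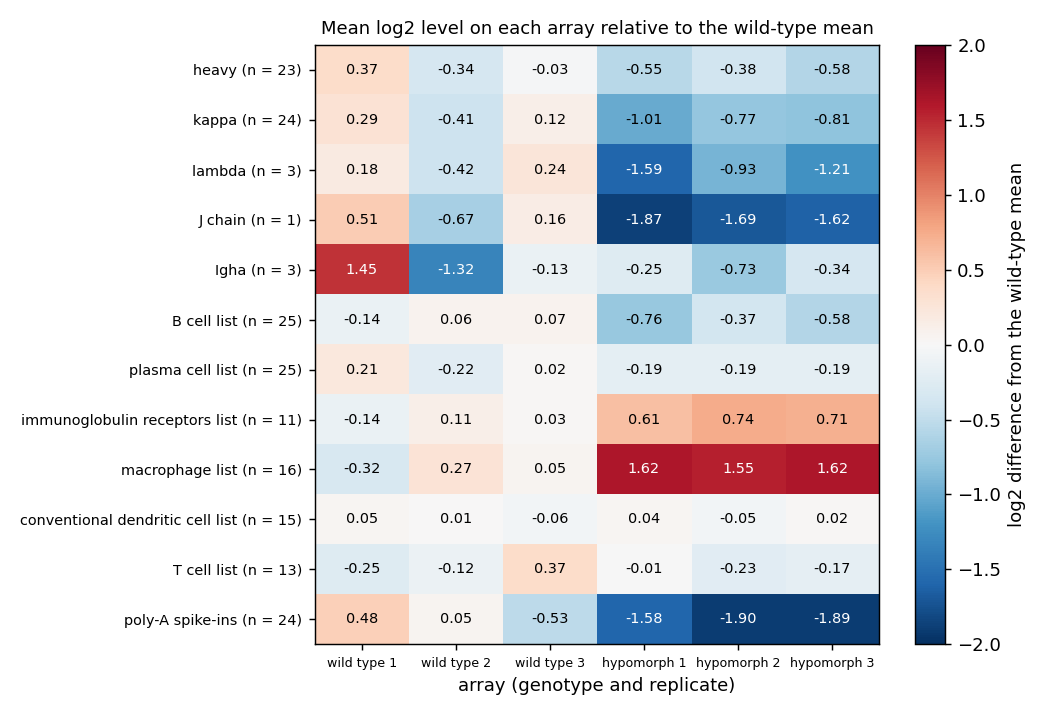
Mean log2 level of each chain and gene list on each array, set against the mean of the 3 wild-type arrays, with the number of probe sets or genes in brackets. The lambda and J chain rows are lowest on hypomorph replicate 1, at -1.59 and -1.87, the Igha row is highest on wild-type replicate 1 at 1.45, and the macrophage row is above 1.5 on all hypomorph arrays.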

How the data were processed

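Expression had been measured on Affymetrix arrays, 3 wild type and 3 hypomorph, grouped by the sample titles. The authors deposited 1 log2 value per probe set and array, made with Affymetrix Power Tools per the submitters' processing notes. For version, background correction and summarization, nothing is given in the sources used here. Its log base was inferred from the range of values, and normalization between arrays from their close medians. A change in RNA content per cell would not show after such scaling, and no detection calls were used.

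Of 22690 rows, 1 had no value and 64 were controls, leaving 22625 probe sets: 20379 with 1 gene symbol, 691 with several and 1555 with none. All 27 member gene IDs matched RefSeq names. The probe-set suffix _x_at marks 16 members. The genotype difference was fitted by lmFit and eBayes of limma 3.58.1 under R 4.3.3 (two-sided, no covariate, no filter on dim probe sets), with Benjamini-Hochberg adjustment over all probe sets. Scripts used Python 3.11.15 with pandas 2.3.3 and matplotlib 3.10.9, and the fit was checked on simulated data. Listed genes were taken by the single-gene probe set of highest mean. Named probe sets are all those of constant regions and J chain, the 3 lowest and highest others per chain, 4 list members of smallest p and defining markers. Other kappa probe sets and list genes are named after their values were seen. The members and lists were chosen with earlier results of these data known. Alternatives were quantile normalization, median centring, a filter at the median level, single-symbol probe sets, trend and robust fitting, array weights, a replicate block, the spike-in covariate and leaving out each array.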

Additional observations from a re-analysis of the deposited data

How the results depend on the processing

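The median log2 difference of the immunoglobulin probe sets stayed negative in every alternative run and ran from -0.86 to -0.47 when 1 array was left out. It was -1.05 when only probe sets above the median level were kept, which leaves 23 members. That filter uses the mean over both genotypes, so the difference itself takes part in it. Through their wild-type arrays alone, 5 of the 23 exceeded the median, and nothing is read from the values under this filter. The number of members that fell ran from 8 to 25 when 1 array was left out, was 11 of 38 with single-symbol probe sets and 16 with the filter at the median level, and was 18 to 24 under the other scalings and variance models. After quantile normalization 1 member rose. The number of all probe sets called ran from 1422 to 3842 when 1 array was left out, the fallen B cell genes from 6 to 16, and the plasma cell genes from 1 to 3 risen and 1 to 6 fallen. Plasma cell genes that rose numbered 4 with trend and robust fitting and 4, with 5 fallen, among probe sets above the median level. With the spike-in covariate 0 members, 0 B cell genes, 0 plasma cell genes and 0 of all probe sets passed with limma, with 6, 14, 2 and 2129 at an unadjusted p under 0.05. The replicate block gave 12 fallen members and 2315 probe sets called in all. Replicate numbers were not taken as pairs. Deviations of same-numbered arrays correlated at 0.178, 0.0145 and 0.106, and those of different-numbered arrays at -0.173 to 0.137. These values do not decide whether the arrays were paired. Causes of these shifts were not tested. Dim probe sets, without detection calls, limit what can be said of 28 members.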

Other observations

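Symbols just outside the selection rule behaved in part like the members. Of 4 probe sets annotated to the kappa locus as a whole (Igk), 2 fell: 1452557_a_at, from 7.50, 6.85 and 7.12 in wild type to 6.52, 6.65 and 6.26 in the hypomorph (log2 difference -0.68, adjusted p = 0.0423 with limma), and 1427757_at, from 5.25, 4.58 and 4.39 to 3.57, 3.89 and 4.14 (log2 difference -0.88, adjusted p = 0.0478). The third, 1425738_at, had wild-type replicate 1 far above the rest, at 9.08, 7.05 and 6.82 against 5.67, 6.24 and 5.96 (log2 difference -1.70, adjusted p = 0.0795). The fourth, 1426178_at, and the Igk-V21 probe set were dim and differed by -0.40 and -0.10. Igll1, a component of the surrogate light chain of B cell precursors, had 1 probe set at 6.11, 5.38 and 5.44 and 5.02, 5.13 and 4.94 (adjusted p = 0.0713) and a dim one that differed by -0.07.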
